A study of Mus musculus with 6 samples.

Results

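Translation-control genes of 2 arms were followed in MIN6 cells, a mouse insulin-secreting line: the 4E-BP genes Eif4ebp1 and Eif4ebp2, the cap-complex genes Eif4e and Eif4g1, the eIF2 alpha subunit gene Eif2s1, and the eIF2B subunit genes Eif2b1, Eif2b2, Eif2b3, Eif2b4 and Eif2b5. These 10 genes were chosen by gene name, with earlier results of this comparison in view, and make up 10 of the 55487 genes measured. All 10 were abundant enough to be tested. The values of these genes between the groups are therefore given as a description.

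The study measured RNA of 6 bulk libraries. In 3 of them the cells carried full-length parathyroid hormone-related protein (PTHrP), and in the other 3 the DsRed vector. Both groups were grown to confluence, transfected transiently with lipofectamine 2000 and harvested for RNA within 3 days. No library of untransfected cells was analysed here, and the share of cells that took up each plasmid was not given in the sources used here. MIN6 is 1 transformed line, so the libraries describe that line. In bulk RNA, more cells with a transcript and more transcript per cell cannot be told apart. Nothing in the labels says that the 3 libraries of a group came from separate cultures, so errors and p-values cover the spread between libraries only, and that spread may be technical.

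Translation of most mRNAs starts when eIF4E binds the 5′ cap and joins the scaffold eIF4G and a helicase to form eIF4F. The 4E-BP proteins occupy the eIF4G-binding face of eIF4E and block that step until the kinase complex mTORC1 phosphorylates them. In the other arm, eIF2 carries the initiator tRNA to the ribosome, and eIF2B reloads eIF2 with GTP. Stress kinases phosphorylate eIF2 alpha, which then inhibits eIF2B and lowers initiation while mRNAs such as Atf4 are translated more. Eif4ebp1 is a known target gene of ATF4, and beta cells depend on both arms because of their high load of proinsulin synthesis. Activity in both arms is set largely by protein phosphorylation, which RNA counts do not measure.

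Eif4ebp1 lies on chromosome 8 (GRCm38 chr8:27260329-27276674, plus strand) and Eif4ebp2 on chromosome 10 (chr10:61428491-61452661, minus strand), and both are protein-coding. Their coding sequences in the GENCODE M21 annotation, without the stop codon, are 351 and 360 bases long. Over 346 aligned bases, 239 were identical (69.1%). The longest run shared by both is 14 bases at the very end of the coding sequence, and no longer run is shared by the whole transcripts. The ends of both coding sequences are shown because they hold that run, in capitals, and because this end encodes the TOR signalling motif through which 4E-BPs bind the raptor subunit of mTORC1.
Eif4ebp1, coding bases 292 to 351: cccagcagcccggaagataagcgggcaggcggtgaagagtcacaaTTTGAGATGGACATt
Eif4ebp2, coding bases 301 to 360: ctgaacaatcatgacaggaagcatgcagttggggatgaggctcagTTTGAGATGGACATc
Outside the capitals the paralogs differ at many positions, so reads of the 2 genes can be told apart over most of their length.

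The libraries held 84427033 to 94613684 counts each. The transfected gene Pthlh had 553 to 797 counts in the PTHrP libraries and 0 to 8 in the DsRed libraries, which matches the labels. It was higher in PTHrP by 7.36 on the log2 scale (SE 0.40, edgeR adjusted p = 4.09e-05). Its DsRed counts were near 0, and the difference ran from 6.81 without DsRed replicate 1 to 8.29 without DsRed replicate 3. PTHrP replicate 2 stood apart by the chi-square over counts, which weighs abundant genes most: its chi-square per gene was 55.9 to 69.4 against each other library, and 8.91 to 36.6 between the remaining libraries. By the root mean square difference of log2 CPM, in which each gene counts alike, PTHrP replicate 1 was the farthest from the others (mean 0.797) and PTHrP replicate 2 came next (0.763), with 0.698 to 0.714 for the remaining libraries. Results are also given without PTHrP replicate 2, and without another library where that moved a value. The summed level of 8 beta cell markers was 50970 to 57760 CPM (counts scaled to the size of the library) in the PTHrP libraries and 52150 to 64080 CPM in DsRed. Ins2 was most of it, at 33250 to 36770 and 33310 to 42680 CPM. Among the 8, only Pdx1 did not overlap between the groups, at 257 to 268 CPM in PTHrP and 275 to 281 in DsRed. The groups did not overlap for 16.3% of all genes tested, in either direction, so nothing is read from this marker. Mafa was at 804 to 1407 CPM in PTHrP and 1389 to 1450 in DsRed, so its groups overlapped. The 6 markers of other islet cells summed to 135 to 175 CPM and 145 to 153 CPM, with Gcg as nearly all of it. The markers of exocrine and duct cells, fibroblasts, endothelium and leukocytes summed to at most 4.98 CPM per type in any library, and no marker was at 0 in all libraries. Their part in the results was not tested.

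Of the 10 genes, Eif4ebp1 differed the most between the groups, and the other 9 lay within 0.20 of 0 on the log2 scale. By edgeR's quasi-likelihood test with Benjamini-Hochberg adjustment over 21141 genes, 0 of the 10 passed an adjusted p of 0.05, beside 0.0426% of all genes tested. DESeq2 called 1 of the 10, Eif4ebp1, beside 0.643% of all genes. At an unadjusted p under 0.05 there were 3, all higher in PTHrP (Eif4ebp1, Eif2b1 and Eif2b2), beside 8.9% of all genes in either direction and 4.92% higher. The 3 PTHrP values lay wholly above the DsRed values for 4 genes and wholly below for 1, beside 8.45% and 7.88% of all genes (16.3% in either direction). These genes were chosen with this comparison known, so nothing is read from those shares. Their median log2 fold change was 0.01, and that of all genes tested was -0.01. Without PTHrP replicate 2, the groups were apart for 4 genes upward and 2 downward, beside 15.2% and 15.3% of all genes.

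Eif4ebp1 encodes 4E-BP1, the best studied repressor of eIF4E. Its levels were 86.0, 80.7 and 87.8 CPM in PTHrP replicates 1 to 3, and 51.5, 55.5 and 69.8 CPM in DsRed replicates 1 to 3. All PTHrP libraries were above all DsRed libraries, and DsRed replicate 3 was the closest to them. The means were 84.8 ± 3.71 and 58.9 ± 9.60 CPM (SD, n = 3 each), a fold of 1.44 and a log2 difference of 0.53 (SE 0.10). In the edgeR fit the adjusted p was 0.18, at rank 38 of the genes ordered by p. Without PTHrP replicate 2 the log2 difference was 0.56 (edgeR adjusted p = 0.0389), and without DsRed replicate 3 it was 0.66 (edgeR adjusted p = 0.02). With any other library left out, the log2 difference was 0.44 to 0.52 and did not pass (edgeR adjusted p from 0.347 to 0.82). DESeq2 gave 0.53 with an adjusted p of 0.00121, and over the 13 alternative fits in edgeR, DESeq2 and limma the adjusted p ran from 4.19e-08 to 0.82. The sign was positive in each of them. Where Eif4ebp1 passed, the share of all genes past the threshold was 0.954% without PTHrP replicate 2, 0.0764% without DsRed replicate 3 and 0.495% without a filter on low counts.

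Eif4ebp2 encodes 4E-BP2, the second repressor of the family. It stood at 28.1, 19.0 and 25.9 CPM in PTHrP and at 25.4, 26.0 and 26.3 CPM in DsRed. The DsRed libraries lay close together, while the PTHrP libraries lay on both sides of them and replicate 2 was the lowest of all 6. The log2 difference was -0.09 (SE 0.12), and without PTHrP replicate 2 it was 0.06, so its direction rested on that library. Without PTHrP replicate 1 it was -0.205. Eif4ebp3, the third family member, had 0 to 3 counts per library and was not tested.

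Eif4e encodes the cap-binding protein that the 4E-BPs hold. Its levels were 198.6, 196.0 and 205.1 CPM in PTHrP and 208.3, 210.6 and 207.5 CPM in DsRed. The groups did not overlap, with PTHrP lower, but the gap was small: the log2 difference was -0.06 (SE 0.05), or -0.05 without PTHrP replicate 2.

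Eif4g1 encodes the eIF4F scaffold. It had 588.7, 479.5 and 538.0 CPM in PTHrP and 589.4, 585.6 and 565.4 CPM in DsRed. The groups overlapped, and PTHrP replicate 2 was again the lowest. The log2 difference was -0.12 (SE 0.07) with all libraries, -0.04 without PTHrP replicate 2 and -0.19 without PTHrP replicate 1.

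Eif2s1 encodes eIF2 alpha, the subunit that stress kinases phosphorylate. It measured 58.0, 62.7 and 63.9 CPM in PTHrP and 70.5, 63.8 and 66.4 CPM in DsRed. PTHrP replicate 3 reached just above the lowest DsRed library, so the groups overlapped at their edges. The log2 difference was -0.12 (SE 0.07), with -0.13 without PTHrP replicate 2 and -0.08 without PTHrP replicate 1.

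**Figure D1:**
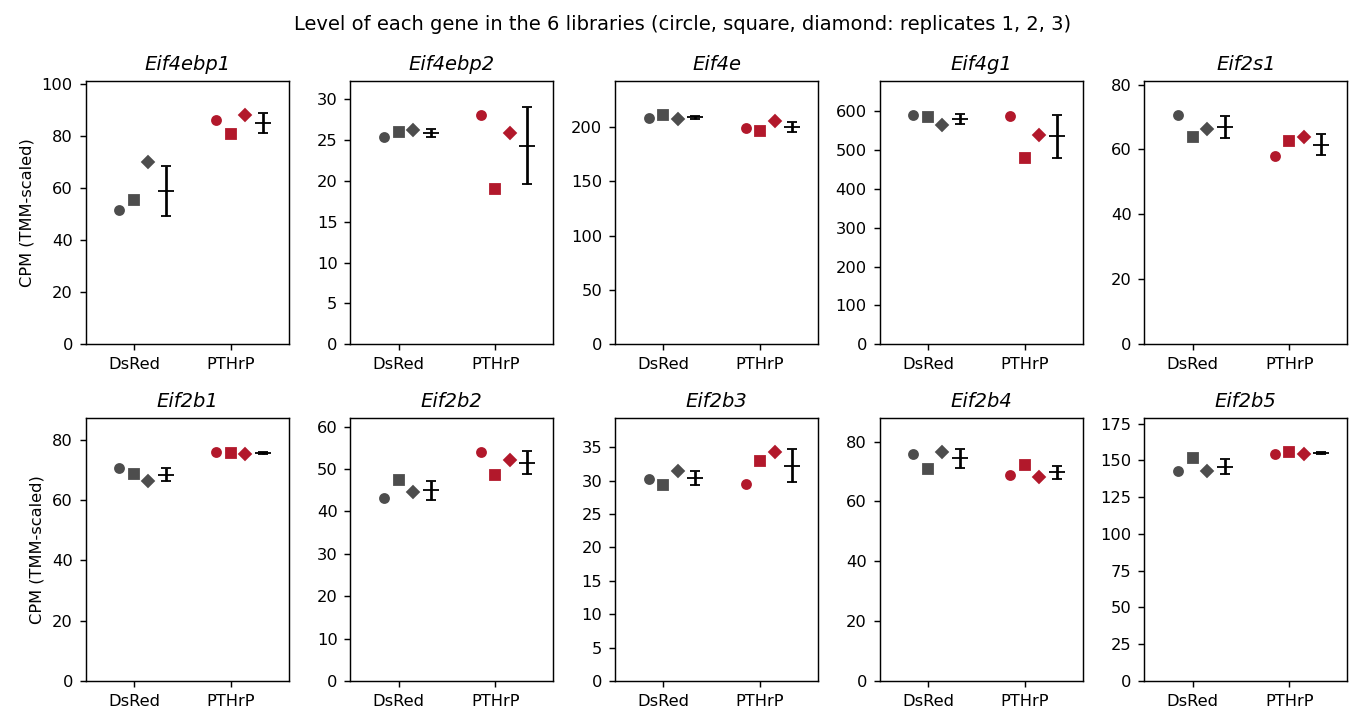
CPM (TMM-scaled, y axis from 0) of the 10 genes in DsRed (grey) and PTHrP (red) libraries; circle, square and diamond are replicates 1, 2 and 3, and the bar is the mean ± SD of 3 libraries. The Eif4ebp1 points are separated by group (80.7 to 87.8 against 51.5 to 69.8), and PTHrP replicate 2 is low for Eif4ebp2 and Eif4g1.

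The eIF2B complex has 5 different subunits, of which gamma and epsilon form the catalytic part and alpha, beta and delta the regulatory part that senses phosphorylated eIF2. In 4 of the 5 genes the log2 difference was positive, with a median of 0.09, and none passed the adjusted test. Eif2b1 (alpha) had 75.9, 75.5 and 75.4 CPM in PTHrP and 70.5, 68.5 and 66.3 CPM in DsRed. The PTHrP libraries were nearly level and all above DsRed, with a log2 difference of 0.14 (SE 0.06). Eif2b2 (beta) had 54.0, 48.5 and 52.1 CPM in PTHrP and 43.1, 47.4 and 44.5 CPM in DsRed. Its groups were also apart, PTHrP replicate 2 being the closest to DsRed, and the log2 difference was 0.20 (SE 0.07).

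Eif2b4 (delta), the remaining regulatory subunit, had 68.9, 72.1 and 68.2 CPM in PTHrP and 76.0, 70.8 and 76.5 CPM in DsRed. It was the only eIF2B gene with a negative difference, -0.09 (SE 0.06), and its groups overlapped through PTHrP replicate 2 and DsRed replicate 2. Its exons overlap those of Snx17 on the opposite strand by 204 bases, 7.85% of its exon length. Snx17 had 159 CPM in PTHrP and 153 in DsRed, and whether the counting used strand is not given in the sources used here.

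Of the catalytic pair, Eif2b5 (epsilon), the exchange factor itself, had 154.7, 155.7 and 154.3 CPM in PTHrP and 142.8, 151.9 and 142.7 CPM in DsRed. The groups were apart but DsRed replicate 2 came close, and the log2 difference was 0.09 (SE 0.05). Eif2b3 (gamma) had 29.6, 32.98 and 34.3 CPM in PTHrP and 30.3, 29.3 and 31.5 CPM in DsRed. The groups overlapped, and the log2 difference was 0.09 (SE 0.08), with 0.04 when PTHrP replicate 3 was left out and 0.15 when PTHrP replicate 1 was. Without PTHrP replicate 2 the 5 differences were 0.15, 0.24, 0.07, -0.12 and 0.09 in the order Eif2b1 to Eif2b5, each with the sign it had before.

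**Figure D2:**
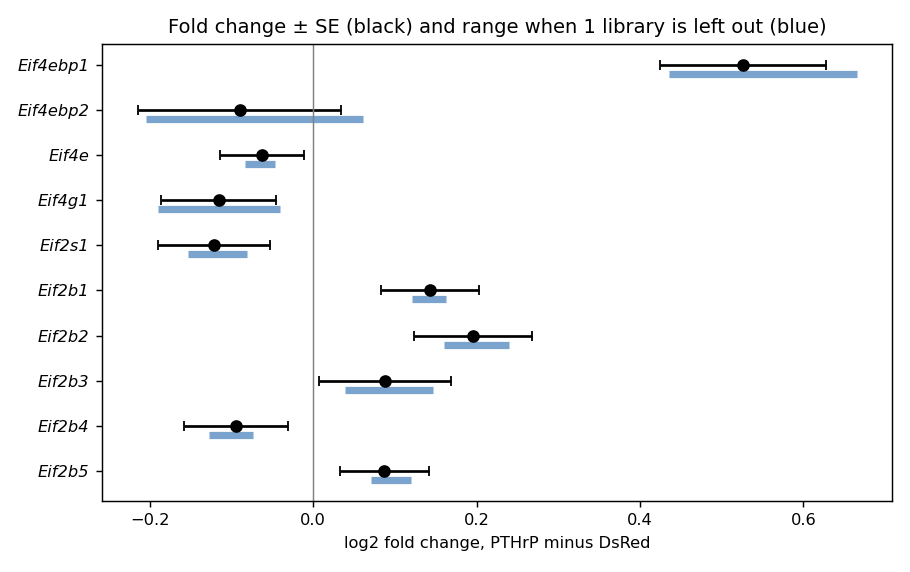
Log2 fold change, PTHrP minus DsRed, of the 10 genes: black points with bars are the fit of all 6 libraries ± SE, and blue bars the range when each library is left out in turn. Eif4ebp1 (0.53, range 0.44 to 0.66) is apart from the others, and the blue bar of Eif4ebp2 crosses 0.

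Counting error at the lowest count of any of the 10 genes was 0.5% to 2.49%. The coefficient of variation between libraries of a group was above 10% for Eif4ebp1 in DsRed (16.3%), Eif4ebp2 in PTHrP (19.4%) and Eif4g1 in PTHrP (10.2%). For Eif2b1 and Eif2b5 in PTHrP it was 0.35% and 0.46%, below the counting error of 1.29% and 0.90% at the lowest count of each.

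The balance of repressor to cap-binding RNA was taken within each library, as a ratio of CPM per kilobase of merged exons, where the scaling of the library cancels. Eif4ebp1 over Eif4e came to 1.19, 1.13 and 1.17 for the PTHrP libraries and to 0.677, 0.721 and 0.920 for the DsRed libraries. The ratio was above 1 in the 3 PTHrP libraries and below 1 in the 3 DsRed libraries, with means of 1.16 ± 0.0308 and 0.773 ± 0.130 (SD, n = 3 each). Eif4ebp2 over Eif4e came to 0.147, 0.101 and 0.131 in PTHrP and 0.127, 0.128 and 0.132 in DsRed, so the groups overlapped. With both repressors added, the ratio to Eif4e was 1.29 ± 0.0540 in PTHrP and 0.901 ± 0.132 in DsRed, where replicate 3 alone was above 1 (1.05).

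Within the repressor pair, Eif4ebp1 was the more abundant transcript per length in every library. Eif4ebp1 over Eif4ebp2 came to 8.08, 11.2 and 8.94 in PTHrP and to 5.34, 5.63 and 6.99 for DsRed. The highest of these values belongs to the library with the low Eif4ebp2 level, and without it the PTHrP mean was 8.51 instead of 9.39. These ratios depend on the transcript length assumed, and they are RNA ratios, not protein ratios.

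**Figure D3:**
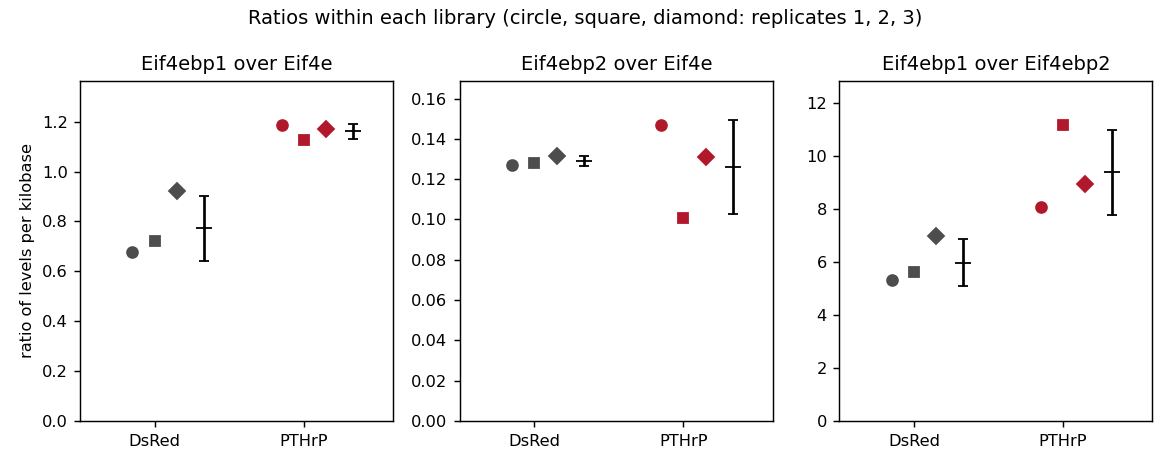
Ratio of CPM per kilobase of exon within each library, y axis from 0, for 3 gene pairs; circle, square and diamond are replicates 1, 2 and 3, and the bar is the mean ± SD of 3 libraries. Eif4ebp1 over Eif4e is 0.677 to 0.920 in DsRed and 1.13 to 1.19 in PTHrP, while Eif4ebp2 over Eif4e overlaps between the groups.

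On the scale of CPM per kilobase of merged exons, the 10 genes spanned a wide range in the DsRed libraries. Eif4g1 was highest at 79.5 ± 1.77, followed by Eif2b5 at 56.2 ± 2.04 and Eif4e at 34.8 ± 0.267 (SD, n = 3 each). Eif2b4 (28.6 ± 1.21), Eif4ebp1 (26.8 ± 4.37) and Eif2b1 (26.5 ± 0.808) came next, and the libraries of neighbours among these 3 overlapped. Eif2b2 (23.9 ± 1.16) and Eif2s1 (13.5 ± 0.680) were lower. Eif2b3 (4.66 ± 0.167) and Eif4ebp2 (4.48 ± 0.0753) were lowest and overlapped each other. In the PTHrP libraries Eif4ebp1 was at 38.6 ± 1.69 and lay above Eif4e at 33.3 ± 0.781, with no overlap on merged exons. That gap depends on the length used: the mean ratio of the pair in PTHrP was 1.16 with merged exons and 1.06 with the longest transcript.

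The eIF2B subunits are present in equal copy number in the assembled complex, but their transcripts were not equally abundant per length. Eif2b5 was 12.05 times Eif2b3 in DsRed with merged exons and 7.05 times with the longest annotated transcript. The regulatory subunits lay between them and within a narrow span, from 23.9 for Eif2b2 to 28.6 for Eif2b4. Merged exons of Eif2b3 total 6520 bases and its longest transcript 3754, so its level is the most sensitive to that choice.

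**Figure D4:**
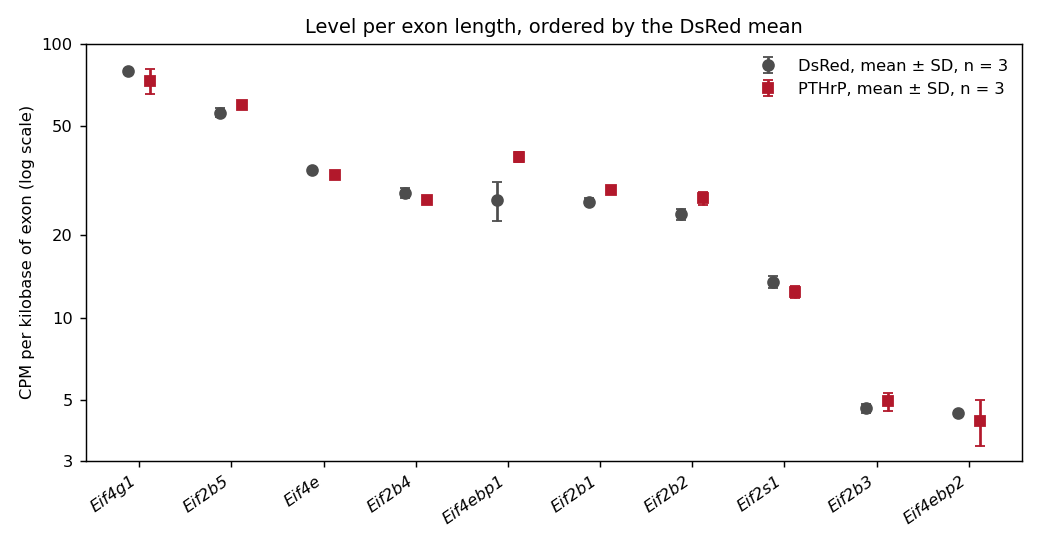
CPM per kilobase of merged exons (log axis) of the 10 genes, ordered by the DsRed mean; points are means of 3 libraries and bars the SD, grey for DsRed and red for PTHrP. Levels run from 79.5 (Eif4g1) to 4.48 (Eif4ebp2) in DsRed, and Eif4ebp1 moves from 26.8 in DsRed to 38.6 in PTHrP.

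The shape of each gene over the 6 libraries was compared as log2 CPM centred on the gene's mean, by the root mean square difference between 2 genes. Over the 45 pairs the median was 0.14. The closest pair was Eif2b1 and Eif2b5 (0.0474), followed by Eif2s1 and Eif2b4 (0.0549) and by Eif4e and Eif2b4 (0.0613). The farthest was the repressor pair, Eif4ebp1 and Eif4ebp2 (0.371), but Eif4ebp1 was nearly as far from Eif2s1 (0.3672) and from Eif4g1 (0.3667). All genes share the same 6 libraries, and a pair of genes that both vary little has a small difference by construction.

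Among 11776 genes whose mean log2 CPM reached 1, the median difference in shape from Eif4ebp1 was 0.32, and 5 genes were closest to it. They were Izumo4 (0.0528), which encodes a sperm protein family member, Ace3 (0.0808), an angiotensin-converting enzyme homologue, Tesmin (0.0876), a testis metallothionein-like gene, 9030612E09Rik (0.0879) and Smpdl3a (0.0896), a phosphodiesterase related to acid sphingomyelinase. All 5 were far less abundant than Eif4ebp1, from 3.48 CPM for Ace3 to 11.3 CPM for Smpdl3a in PTHrP. Izumo4 had 5.16, 4.85 and 5.74 CPM in PTHrP and 3.38, 3.46 and 4.45 CPM in DsRed, with DsRed replicate 3 the highest of its group, as for Eif4ebp1. The 5 were picked for likeness to a gene that differs, so their own differences are a description.

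Promoter windows of RefSeq on GRCm38.p6, 250 bases before to 50 after a start, were found for 8 of the 10 genes, 9 windows in all. There was none for Eif4ebp1 and Eif2b3. Both strands were searched for 3 motifs of stress and growth signalling: TGATGNAA, the composite site of ATF4 and C/EBP factors, the ER stress response element, searched as CCAAT and CCACG with 9 bases between them, and CACGTG, the E-box. TGATGNAA was in 0 of the 9 windows and in 3.97% of all 32851 windows. The ER stress response element was in 0 of the 9 and in 0.119% of all. CACGTG was in 2 of the 9, one of Eif4e and that of Eif4g1, and in 7.15% of all, and no match overlapped another motif.

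These 2 windows are shown because both eIF4F genes hold CACGTG, in capitals, at 2 places each. In the Eif4e window (chr3:138527018-138527317, plus strand) the matches begin at positions -228 and -64 from the start site, and in that of Eif4g1 (chr16:20672477-20672776, plus strand) at -54 and 16.
Eif4e: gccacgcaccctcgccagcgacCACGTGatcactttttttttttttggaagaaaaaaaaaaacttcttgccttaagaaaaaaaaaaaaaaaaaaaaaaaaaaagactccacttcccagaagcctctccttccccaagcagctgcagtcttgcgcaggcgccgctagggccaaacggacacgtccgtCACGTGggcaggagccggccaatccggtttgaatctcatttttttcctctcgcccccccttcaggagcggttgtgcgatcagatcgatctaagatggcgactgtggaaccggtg
Eif4g1: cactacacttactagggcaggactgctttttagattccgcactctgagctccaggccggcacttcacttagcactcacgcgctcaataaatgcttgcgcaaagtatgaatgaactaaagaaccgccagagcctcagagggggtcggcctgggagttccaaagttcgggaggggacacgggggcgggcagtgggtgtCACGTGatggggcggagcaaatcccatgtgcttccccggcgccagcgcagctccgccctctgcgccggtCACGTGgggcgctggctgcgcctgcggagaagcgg
A match is a string of letters and not a measured binding site, and neither gene differed between the groups past the adjusted test. The 9 windows had 50% to 70.0% G and C, beside a median of 52.7% over all windows. They held 9 to 34 CpG pairs, beside a median of 7.

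The wider pathway was covered by 6 lists of other translation-control genes. Of 102 gene names listed, 101 were among the genes measured and 99 were tested. The exceptions among the 101 were Eif4ebp3 and Eif2s3y, the latter with 0 counts in all libraries. By edgeR's test 0 of 99 passed the adjusted threshold, while at an unadjusted p under 0.05 there were 7 higher and 6 lower, beside 4.92% and 3.98% of all genes. The same shares stand beside the counts of each list below. Earlier results of these data were known when the lists were chosen, so nothing is read from those counts. DESeq2 called 1 of the 99, Lamtor1, beside 0.643% of all genes. The median log2 difference of the 99 was 0.02, with 53 positive and 46 negative.

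Among 16 other genes of the cap-binding complex the median was -0.02, with 1 higher and 1 lower at the unadjusted threshold. Eif4a1, the helicase of eIF4F, had 660, 550 and 652 CPM in PTHrP and 722, 717 and 698 CPM in DsRed. All PTHrP libraries were lower, and replicate 2 the lowest, with a log2 difference of -0.20 (SE 0.07). Mknk1, a kinase that phosphorylates eIF4E, was 0.18 higher (SE 0.08). Without PTHrP replicate 2 the differences of Eif4a1 and Mknk1 were -0.12 and 0.11.

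The eIF2 arm gave values of both signs. Over 15 partners of eIF2 the median was 0.02, with 0 higher and 1 lower at the unadjusted threshold. Eif2s2, the beta subunit, had 180.6, 268.3 and 188.2 CPM in PTHrP and 172.7, 169.1 and 175.6 CPM in DsRed, so most of its log2 difference of 0.30 came with replicate 2, and without that library it was 0.10. Bzw1, which competes with eIF5 for eIF2, stood at -0.12, or -0.13 without PTHrP replicate 2. Of 12 genes for eIF2 alpha kinases, phosphatases and their adaptors, 0 were higher and 4 lower at the unadjusted threshold. Of all genes tested, 4.92% were higher and 3.98% lower at that threshold. The median of the 12 was -0.06. Eif2ak3 encodes PERK, the ER stress kinase of eIF2 alpha, and had 169.8, 156.3 and 165.1 CPM in PTHrP and 187.8, 191.2 and 184.7 CPM in DsRed. The groups were apart with PTHrP lower, and the log2 difference was -0.20, or -0.16 without PTHrP replicate 2. Nck1, an adaptor that binds PERK and eIF2, stood at -0.29, or -0.33 without PTHrP replicate 2.

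The 14 eIF3 subunits, which bridge eIF4G and the small ribosomal subunit, had a median of 0.10, with 2 higher and 0 lower at the unadjusted threshold. PTHrP replicate 2 was above the mean of PTHrP replicates 1 and 3 for all 14 except Eif3a, Eif3b and Eif3g. That median therefore rests in part on replicate 2, and it was not computed without that library. Eif3c was 0.24 higher and Eif3f 0.21 higher, and without PTHrP replicate 2 both differences were 0.13. The 28 genes of mTORC1, the kinase complex that inactivates 4E-BPs, and its regulators had a median of 0.05, with 3 higher and 0 lower. Lamtor1, which anchors mTORC1 to the lysosome, had 98.4, 105 and 103 CPM in PTHrP and 83.4, 81.8 and 83.2 CPM in DsRed. The groups were well apart and tight, and the log2 difference was 0.30 (SE 0.06, edgeR adjusted p = 0.155). Without PTHrP replicate 2 Lamtor1 was at 0.28 (edgeR adjusted p = 0.0194) and Akt1s1, the mTORC1 inhibitor PRAS40, at 0.24 (edgeR adjusted p = 0.0272). With all libraries Akt1s1 was 0.18 higher. The 14 elongation and termination factors had a median of 0.04, with 1 higher and 0 lower. Eef2, the translocation factor, was 0.24 higher, or 0.17 higher without PTHrP replicate 2. Etf1, the release factor, stood at -0.14, or -0.08 without that library.

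**Figure D5:**
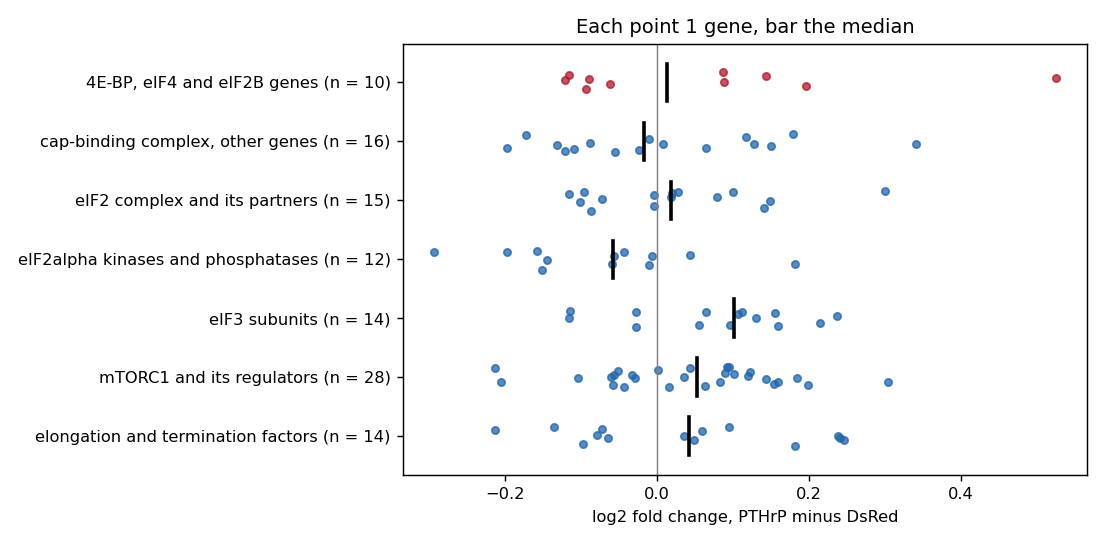
Log2 fold change, PTHrP minus DsRed (x axis), of each tested gene in the 10 genes described here (red) and in 6 lists of other translation-control genes (blue); black bars are list medians. With all 6 libraries, medians run from -0.06 (eIF2 alpha kinases and phosphatases) to 0.10 (eIF3 subunits), and Eif4ebp1 at 0.53 is the highest point.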

How the data were processed

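The data were raw counts per gene for 6 libraries, deposited by the authors as 1 table. The reads went through bcl2fastq, STAR and featureCounts 2.0.3 (Subread) on GRCm38, per the submitters' processing notes. How strand and multi-mapping reads were handled is not given in the sources used here. The table had 55774 rows, and 287 repeats of 168 identifiers were dropped.

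Counts were tested with edgeR 4.0.16 (R 4.3.3): filterByExpr by group, TMM factors, robust quasi-likelihood F-test with a group term alone, two-sided, Benjamini-Hochberg adjusted over 21141 genes and called at 0.05. The biological coefficient of variation was 17.7%. CPM are TMM-scaled, and log2 CPM for shapes used a prior count of 2. SE is the log2 fold change divided by the square root of F. Levels per kilobase used merged exons of GENCODE M21 on GRCm38. Scripts were tested on simulated data. Alternatives were DESeq2 1.42.0, limma-voom 3.58.1, other scalings and filters, the longest transcript, a replicate block and each library left out.

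The members and lists were chosen with earlier results of these data known. By rule, named genes are the 10 members, Pthlh, per pathway list the genes past the threshold and the 2 with the smallest p, and the 5 genes closest in shape to Eif4ebp1. Eif4ebp3 and Eif2s3y are named as not tested, and Snx17 for its overlap. Outside this rule, Pdcd4, Eef1a1 and Sesn3 in the closing section were chosen after their values were seen. So were Eif3a, Eif3b and Eif3g, and Ins2, Pdx1 and Mafa among the beta cell markers.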

Additional observations from a re-analysis of the deposited data

How the results depend on the processing

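The sign of the Eif4ebp1 difference was positive in all 13 alternative fits, and its adjusted p was under 0.05 without a filter on low counts, with DESeq2 and without PTHrP replicate 2 or DsRed replicate 3. Eif4ebp2 ran from -0.205 without PTHrP replicate 1 to 0.061 without PTHrP replicate 2. Genes past the threshold were 9 in the main edgeR fit, 14 with library sizes alone, 220 without a filter, 136 with DESeq2, 18 with limma-voom and 2 to 213 with 1 library left out, the 213 being without PTHrP replicate 2. Of the 10 genes, 1 passed without a filter, 1 with DESeq2 and 0 to 1 with a library left out. Of the pathway genes, 4 passed without a filter (Eif3c, Lamtor1, Eef2 and Eif2s2), 1 with DESeq2 and 0 to 2 with a library left out. The shares of all genes past the threshold were 0.495% without a filter and 0.643% with DESeq2. They were 0.954% without PTHrP replicate 2, where the 2 pathway genes passed, and 0.0764% without DsRed replicate 3. Where a library was left out, its group kept 2 libraries. The cause of these differences was not tested.

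With the longest transcript in place of merged exons, DsRed levels in CPM per kilobase were 41.8 for Eif4e, 102.9 for Eif4g1, 19.6 for Eif2s1, 34.0 for Eif2b1, 28.0 for Eif2b2, 8.09 for Eif2b3 and 36.8 for Eif2b4, because the divisor is shorter, and Eif2b1 then stood above Eif4ebp1. Eif4ebp1 over Eif4e in PTHrP became 1.06, Eif4ebp2 over Eif4e in DsRed 0.107, and both repressors over Eif4e in PTHrP 1.17.

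The labels do not say whether equal replicate numbers pair the samples. Deviations from the group means correlated at 0.023, -0.106 and 0.025 for numbers 1, 2 and 3, and at -0.155 to 0.131 for unlike numbers. Such deviations sum to 0 within each group of 3, so these values cannot decide whether the samples are paired. With a replicate block, 7 genes and 0 of the 10 passed, and Eif4ebp1 had a log2 difference of 0.54 (edgeR adjusted p = 0.173). The lowest count of any of the 10 genes in any library was 1618.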

Other observations

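Of the 99 pathway genes tested, PTHrP replicate 2 was the highest of the 6 libraries for 40 (40.4%) and the lowest for 26 (26.3%), beside 23.4% and 23% over all genes tested. Of the 10 genes of the report it was the highest for 1 and the lowest for 3, and PTHrP replicate 1 was the highest for 3 and the lowest for 1. Pdcd4, an inhibitor of the helicase eIF4A, had 155.6 CPM there, a mean of 83.0 CPM in PTHrP replicates 1 and 3, and a mean of 84.7 CPM in DsRed. Eef1a1, the tRNA-delivering elongation factor, had 1177 CPM against 797 and 782 CPM. Sesn3, an mTORC1 inhibitor, had 93.4 CPM against 136 and 141 CPM. These genes were named after their values were seen.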
